A study of Mus musculus with 12 samples.

Results

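SCA-1, the antigen used to sort one of the cardiac populations of this study, is the product of Ly6a, and Ly6a was examined here with its relatives Ly6c1, Ly6c2 and Ly6e. The members were chosen by gene symbol. Of these 4 genes, 3 had a row among the 12528 genes of the deposited tables: Ly6a (ENSMUSG00000075602), Ly6c1 (ENSMUSG00000079018) and Ly6e (ENSMUSG00000022587). Ly6c2 was not analysed here. RNAseq was carried out on cells sorted from adult hearts of C57BL/6 mice that carried CreER at 1 copy of Bmi1 and a YFP reporter at 1 copy of Rosa26 (Bmi1-YFP mice), so that tamoxifen (TM) given to all groups marked cells in which the Bmi1 locus was active at that time, together with their later progeny. The first group was YFP+ cells of healthy hearts (Bmi1-CPC, homeostasis), taken 5 days after TM. The second was SCA-1+ YFP- cells of healthy hearts (Sca-1-YFP-, homeostasis), from which CD45+ cells had been removed. The third was YFP+ cells after acute myocardial infarction (Bmi1-CPC, AMI), where the infarct was made 5 days after TM and hearts were taken 5 days later. Each group had 4 replicates, which pooled cells of 6 mice per replicate in homeostasis and of 2 to 3 mice after AMI. The methods give an age of 8 weeks, and mention CD45 depletion for the SCA-1+ cells alone. The YFP+ samples carry a SCA-1 positive mark in their names although only YFP is given as their gate, so whether SCA-1 protein helped to choose them is not settled.

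The Ly6 genes encode small cysteine-rich proteins with the three-finger fold of the Ly6/uPAR family, and most of them are held at the outer face of the cell membrane by a glycosylphosphatidylinositol (GPI) anchor. SCA-1 is best known as a surface marker of mouse haematopoietic stem cells, and in the heart it is found on endothelial cells and on stromal cells that include fibroblasts. Ly6c1 and Ly6c2 encode the Ly-6C antigens: Ly6c1 is known from endothelial cells, and Ly6c2 is the form known from inflammatory monocytes. Ly6e is an interferon-induced gene that also serves as a receptor for the placental fusion protein syncytin-A. Ly6a is likewise induced by interferons.

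Values are the authors' normalized expression values, each a read number with 0.5 added and then scaled by the library's own factor. Levels can thus be compared between libraries but not between genes of different length. The 12 libraries held 3397621 to 8078721 reads in the listed genes, of which mt-Rnr2, a ribosomal RNA of mitochondria, made up 25.0 to 32.8% in homeostatic Bmi1-CPC, 10.4 to 23.7% in Sca-1-YFP- cells and 20.3 to 33.4% in AMI Bmi1-CPC. A difference was called at an adjusted p under 0.05 in limma's two-sided test on log2(value + 1), with the Benjamini-Hochberg adjustment over all genes tested, and fold changes are on that scale. The calls were split almost evenly, with 48.8%, 49.3% and 49.2% of them higher in the first-named group for Bmi1-CPC versus Sca-1-YFP-, AMI versus homeostasis, and AMI versus Sca-1-YFP-. Scaling by library totals, which mt-Rnr2 enters, moved these shares to 28.2%, 60.8% and 35.2% and shifted the median gene to log2 fold changes of -0.25, 0.08 and -0.18. The 4 homeostatic Bmi1-CPC libraries and the 4 Sca-1-YFP- libraries each serve in 2 of the 3 comparisons, so the comparisons are not independent of each other. The study calls its replicates biological, and p-values measure the spread between these pools of cells.

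The 3 genes lie on mouse chromosome 15, Ly6e on the plus strand and Ly6a and Ly6c1 on the minus strand (GENCODE M21, GRCm38). Their sequences set how far a read of 75 bases can tell them apart. Ly6c1 and Ly6c2 are shown because a level assigned to one may hold reads of the other: their coding sequences are both 396 bases long and differ at 9 bases (97.7% identity), and bases 66 to 253 form an identical run of 188 bases. Bases 1 to 300 of each, counted from the start codon, are given here in the sense direction from the GENCODE M21 transcripts, and the 7 of those bases that differ are in capitals.
Ly6c1: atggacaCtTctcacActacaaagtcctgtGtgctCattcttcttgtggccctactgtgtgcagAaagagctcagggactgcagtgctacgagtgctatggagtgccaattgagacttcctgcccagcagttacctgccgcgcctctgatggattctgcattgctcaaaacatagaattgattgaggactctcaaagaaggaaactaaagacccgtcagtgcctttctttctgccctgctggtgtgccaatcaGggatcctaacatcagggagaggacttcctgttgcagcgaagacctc
Ly6c2: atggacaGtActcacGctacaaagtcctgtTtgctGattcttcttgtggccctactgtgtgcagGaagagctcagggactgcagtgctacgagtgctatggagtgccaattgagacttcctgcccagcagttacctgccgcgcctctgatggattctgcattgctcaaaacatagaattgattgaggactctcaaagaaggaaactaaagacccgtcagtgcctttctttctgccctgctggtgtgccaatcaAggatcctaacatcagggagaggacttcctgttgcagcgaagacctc

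The coding sequence of Ly6c1 matched that of Ly6a at 335 of 395 aligned bases (84.8%). Over the longest coding transcript, 179 of the 770 windows of 75 bases in Ly6c1 (23.2%) occurred unchanged in another gene, and 94.3% came within 2 mismatches of Ly6a, Ly6c2 or the related I830127L07Rik. For Ly6a, 21 of 881 windows (2.38%) were identical elsewhere and 17.3% came within 2 mismatches of a relative. Ly6e had 0 of 2207 windows shared on either measure. The processing notes name RSEM, which divides ambiguous reads by estimate, and reads of Ly6c1 and Ly6c2 cannot be fully told apart in the Ly6c1 values below. The kit did not mark strand, so reads antisense to a gene cannot be separated from its own.

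**Figure D1:**
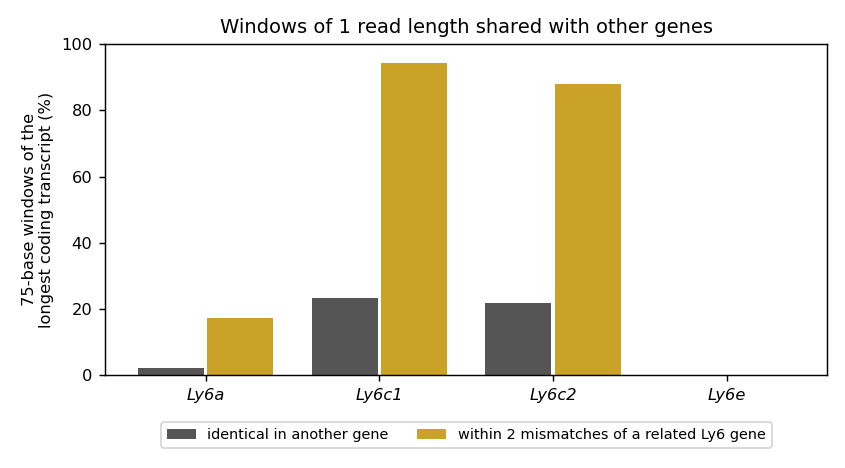
Share of 75-base windows of the longest coding transcript of each gene (vertical axis, %) that is identical in another gene (grey) or lies within 2 mismatches of a related Ly6 gene (yellow). For Ly6c1 94.3% of windows have a near copy, for Ly6a 17.3%, and for Ly6e 0.

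All 3 genes were abundant in every library. Ly6a stood at position 81 of 12528 genes by mean value in homeostatic Bmi1-CPC, at 117 in Sca-1-YFP- cells and at 125 after AMI. Ly6e held positions 60, 130 and 99, and Ly6c1 held 235, 878 and 505. Behind these values were 2171 to 5120 reads per library for Ly6a, 516 to 2332 for Ly6c1 and 2187 to 5471 for Ly6e, for which counting alone gives an error of at most 4.40%. Together the 3 genes took 0.101 to 0.218% of the reads of a library. Divided by the median length of its coding transcripts, in kilobases, Ly6a was above Ly6c1 in each group (944 against 719 in homeostatic Bmi1-CPC, 749 against 290.2 among Sca-1-YFP- cells, 673 against 428 after AMI), and it stayed above Ly6c1 when the longest transcript was used. The place of Ly6e depended on the length chosen: it was 1208 per kilobase in homeostatic Bmi1-CPC with the median transcript and 421 with the longest, since its annotated transcripts run from 431 to 2281 bases.

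On the authors' scale Ly6a, the SCA-1 gene, was highest in homeostatic Bmi1-CPC and close to constant among those 4 libraries. Its value was 789.6, 810.5, 836 and 801 in Bmi1-CPC replicates 1 to 4, a mean of 809 ± 19.7 (SD, n = 4). In Sca-1-YFP- cells, which were chosen by the SCA-1 protein itself, it was 508, 782, 679 and 599 (642 ± 116). After AMI it was 468, 473, 639 and 727 in Bmi1-CPC (577 ± 128). The homeostatic Bmi1-CPC libraries lay above every library of the other groups, and the Sca-1-YFP- and AMI libraries were interleaved. The coefficient of variation was 2.43% in homeostatic Bmi1-CPC, near the counting error of 1.94% of the shallowest of those libraries, against 18.1% and 22.1% in the other groups. This spread was not computed on other scales.

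By fold change, Ly6c1 had the widest range between groups of the 3 genes. It measured 464, 413, 319.6 and 356 in homeostatic Bmi1-CPC (388 ± 63.7). In Sca-1-YFP- cells it measured 107, 249.5, 128 and 143 (157 ± 63.6). AMI Bmi1-CPC had 182, 186, 225 and 331 (231 ± 69.4). All homeostatic Bmi1-CPC libraries exceeded all Sca-1-YFP- libraries, AMI replicate 4 lay above homeostatic replicate 3, and Sca-1-YFP- replicate 2 lay inside the AMI range.

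Ly6e was the most abundant member by value in Bmi1-CPC. Its values were 1002, 1097, 815 and 929 in homeostatic Bmi1-CPC (961 ± 119). They were 474, 666, 555 and 604 in Sca-1-YFP- cells (574 ± 81.0). After AMI they were 584, 563, 708 and 749 (651 ± 91.3). As with Ly6a, no library of the other groups reached the lowest homeostatic Bmi1-CPC library. Sca-1-YFP- replicate 2 had the highest value of its group for each of the 3 genes, and AMI replicate 4 the highest of its own.

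**Figure D2:**
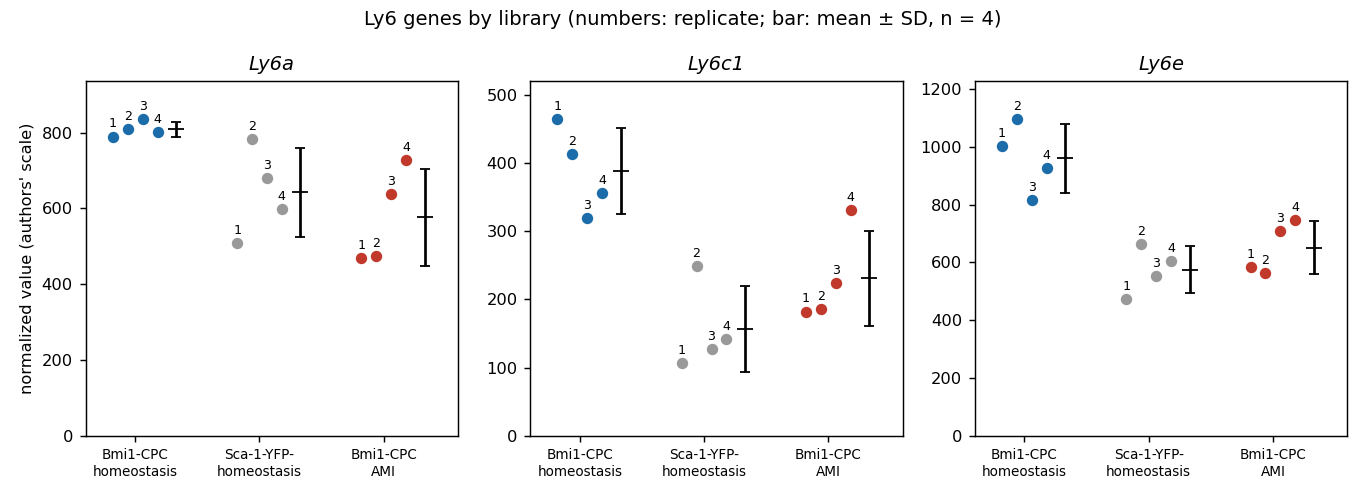
Normalized value (vertical axis, authors' scale, starting at 0) of Ly6a, Ly6c1 and Ly6e in each of the 12 libraries, with the replicate number above each point and the mean ± SD beside each group. Homeostatic Bmi1-CPC (blue) stands above Sca-1-YFP- cells (grey) for all 3 genes, and AMI Bmi1-CPC (red) overlaps it only for Ly6c1.

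The first comparison set Bmi1-CPC of the healthy heart beside the SCA-1+ YFP- reference cells. Ly6c1 was 2.58-fold higher in Bmi1-CPC (log2 fold change 1.37, SE 0.22, limma adjusted p = 0.000366). Ly6e was 1.67-fold higher (0.74, SE 0.14, adjusted p = 0.00116). The call thus held for 2 of the 3 genes, both higher, where 34.4% of the 12450 genes tested were called in either direction and 16.8% were called higher. The libraries did not overlap for any of the 3 genes, as for 33.7% of all genes tested, 16.6% in this direction.

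For Ly6a itself the difference did not pass: it was 1.28-fold higher in Bmi1-CPC (log2 fold change 0.35, SE 0.14, limma adjusted p = 0.067), with a 95% interval of 0.05 to 0.65 on the log2 scale. This call turned on the setting. With the replicate number as a block the limma adjusted p was 0.034, and DESeq2 gave 0.34 with an adjusted p of 0.047. Leaving out Sca-1-YFP- replicate 2, the library with the highest Ly6a of its group, gave a log2 fold change of 0.45 with a limma adjusted p of 0.013. Scaling to library totals gave 0.10 with an edgeR adjusted p of 0.66. SCA-1 protein chose the Sca-1-YFP- cells, so their Ly6a level is not independent of the sort.

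The second comparison set Bmi1-CPC after AMI beside those of homeostasis. These groups also differed in time since TM and in mice per pool, and no sham-operated group was sequenced. The part of time, pooling and surgery in the changes was not tested. All 3 genes fell. Ly6c1 was 1.71-fold lower (log2 fold change -0.78, SE 0.18, limma adjusted p = 0.00457), Ly6e 1.48-fold lower (-0.56, SE 0.13, adjusted p = 0.00412) and Ly6a 1.43-fold lower (-0.51, SE 0.14, adjusted p = 0.011). Of the 12486 genes tested, 43.4% were called in either direction and 22.0% were called lower. The libraries did not overlap for Ly6a and Ly6e, as for 40.6% of all genes, 20.6% in this direction. With library totals as the scale the decrease kept its direction but the calls for Ly6a (-0.38, edgeR adjusted p = 0.13) and Ly6e (-0.45, adjusted p = 0.055) ended. With mt-Rnr2 left out of the totals both passed again (-0.45 with an edgeR adjusted p of 0.032, and -0.52 with an edgeR adjusted p of 0.0090).

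The last comparison set the infarct Bmi1-CPC beside the homeostatic Sca-1-YFP- cells. These differ at once in lineage mark, described gate and CD45 depletion, time since TM, mice per pool and injury. None of the 3 genes was called, where 51.8% of the 12521 genes tested were, and all 3 overlapped between the groups, where 46.8% of genes did not. Ly6c1 was 1.51-fold higher after AMI (log2 fold change 0.59, SE 0.25, limma adjusted p = 0.068, 95% interval 0.04 to 1.14). Without Sca-1-YFP- replicate 2 this became 0.84 with an adjusted p of 0.0032, and with all 12 libraries in 1 fit the adjusted p was 0.047. Ly6e differed by 0.18 (interval -0.11 to 0.48, adjusted p = 0.28) and Ly6a by -0.16 (interval -0.54 to 0.21, adjusted p = 0.45).

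**Figure D3:**
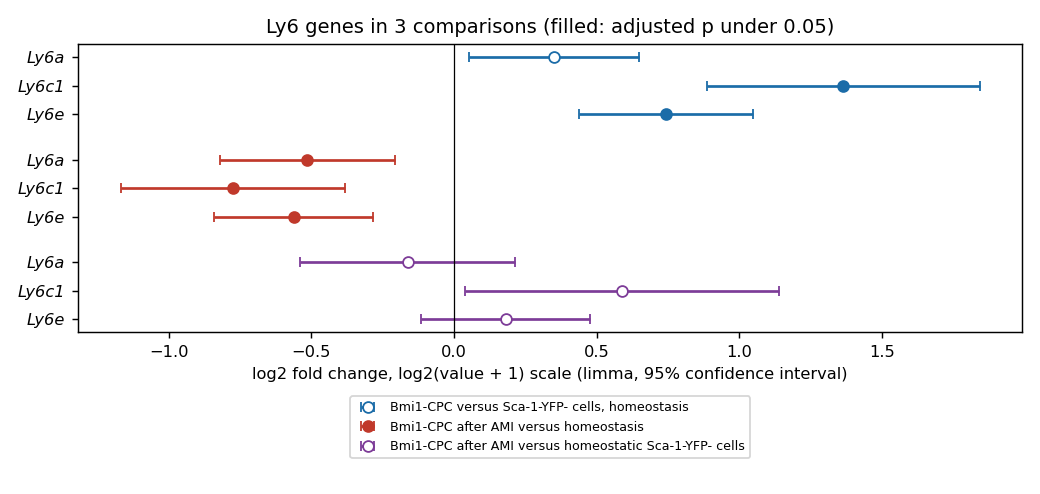
Log2 fold change on the log2(value + 1) scale (horizontal axis) with its 95% limma interval for Ly6a, Ly6c1 and Ly6e in the 3 comparisons, filled where the adjusted p was under 0.05. Homeostatic Bmi1-CPC exceed Sca-1-YFP- cells by 0.35 to 1.37, the AMI values lie 0.51 to 0.78 lower than homeostasis, and no gene is filled in the AMI versus Sca-1-YFP- comparison.

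Ordered by mean level, Ly6a ran from homeostatic Bmi1-CPC to Sca-1-YFP- to AMI Bmi1-CPC, and neither neighbouring step passed the unpaired test, while the step between the ends did. With the replicate block the first of these steps passed as well (limma adjusted p = 0.034). Ly6c1 and Ly6e ran from homeostatic Bmi1-CPC to AMI Bmi1-CPC to Sca-1-YFP-, with the first step past the test and the second not.

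The genes did not keep a fixed proportion to each other. Ratios within a library carry no scaling between libraries. The value of Ly6c1 relative to Ly6a was 0.382 to 0.588 in homeostatic Bmi1-CPC, 0.188 to 0.319 in Sca-1-YFP- cells and 0.351 to 0.456 after AMI. The Sca-1-YFP- libraries lay below all others on this ratio, and the homeostatic and AMI Bmi1-CPC libraries overlapped. Ly6e relative to Ly6a was 0.975 to 1.35, 0.817 to 1.01 and 1.03 to 1.25 in the same order of groups, where the Sca-1-YFP- range lay below the AMI range and overlapped that of homeostatic Bmi1-CPC. Ly6c1 relative to Ly6e was 0.377 to 0.464, 0.226 to 0.375 and 0.312 to 0.442. Its Sca-1-YFP- range fell just short of the homeostatic Bmi1-CPC range. These ratios were described and not tested.

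Markers of other cell types also differed between the groups. Of 18 endothelial markers, which included Pecam1, Cdh5 and Erg, 18 were higher in homeostatic Bmi1-CPC and 14 were lower after AMI, with 0 in the other direction in either case. Their median log2 fold changes were 1.62 and -0.69, beside 0.00 and -0.02 over all genes. Of all genes tested, 16.8% were called higher in homeostatic Bmi1-CPC and 22.0% were called lower after AMI. Between AMI Bmi1-CPC and Sca-1-YFP- cells, where 51.8% of all genes and no Ly6 member were called, 13 endothelial markers were higher and 0 lower (median 0.92). Erg, a transcription factor of endothelial cells, had a mean of 247 in homeostatic Bmi1-CPC, 57.5 in Sca-1-YFP- cells and 129.9 after AMI. The summed value of the 18 markers was 9514 to 11918 in homeostatic Bmi1-CPC, 2437 to 4999.8 in Sca-1-YFP- cells and 5417 to 7949 after AMI. Sca-1-YFP- replicate 2 and AMI replicate 4, the libraries with the highest Ly6 values of their groups, also had the highest endothelial sums of those groups. This was not particular to endothelial markers. Both libraries were also highest of their groups for the pericyte and smooth muscle sum (891 and 2257) and the cardiomyocyte sum (221 and 478). In bulk RNA, fewer cells of a type and less RNA per cell cannot be told apart.

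Taken as a percentage of the endothelial sum of the same library, a quotient chosen after the values were seen, the members parted. Ly6c1 came to 2.68 to 4.88% in homeostatic Bmi1-CPC, 3.61 to 4.99% in Sca-1-YFP- cells and 3.33 to 4.16% after AMI, so the 3 groups overlapped. Ly6a came to 7.01 to 8.30%, 15.6 to 20.9% and 8.57 to 9.69%, with the Sca-1-YFP- libraries well above the others. Ly6e came to 6.84 to 10.9%, 13.3 to 19.4% and 9.42 to 10.7%, with the same group highest. Within homeostatic Bmi1-CPC, replicate 3 had the highest endothelial sum, the highest Ly6a and the lowest Ly6c1 and Ly6e. Other denominators gave another picture. Over the fibroblast sum, Ly6c1 came to 5.29 to 6.78%, 0.369 to 0.960% and 0.691 to 1.88% in the same order of groups. All 3 members were highest in homeostatic Bmi1-CPC on that quotient, without overlap. Over the pan-leukocyte sum, Ly6c1 came to 192 to 246%, 175 to 429% and 25.7 to 77.8%, with AMI lowest. The part of endothelial RNA in the group differences was not tested.

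**Figure D4:**
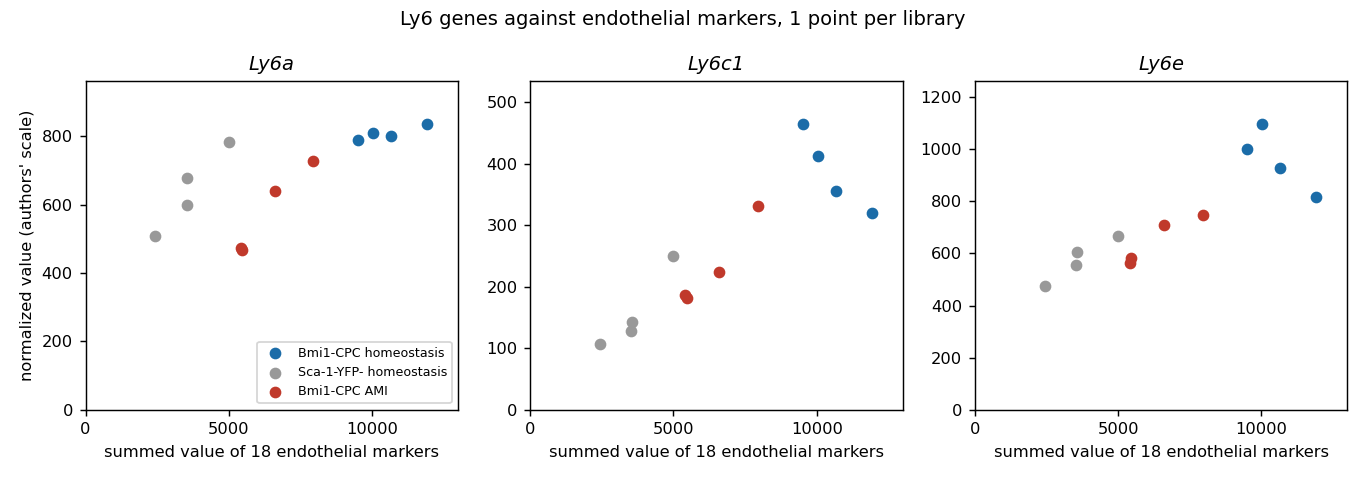
Normalized value of Ly6a, Ly6c1 and Ly6e (vertical axes) against the summed value of 18 endothelial markers (horizontal axis), 1 point per library. For Ly6c1 the Sca-1-YFP- (grey) and AMI (red) libraries lie along 1 band from 107 to 331, whereas for Ly6a the Sca-1-YFP- libraries stand at high values, 508 to 782, for endothelial sums of 4999.8 or less.

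The fibroblast markers went the other way. All 16 were lower in homeostatic Bmi1-CPC than among Sca-1-YFP- cells (median log2 fold change -2.03), and 10 were higher and 2 lower after AMI (median 0.88). Over all genes tested, 34.4% were called between the homeostatic groups and 43.4% between AMI and homeostasis. Those shares also apply to the pericyte and cardiomyocyte lists below. Pdgfra, a receptor that marks cardiac fibroblasts, had a mean of 262 in homeostatic Bmi1-CPC, 1016 in Sca-1-YFP- cells and 270.5 after AMI. The sum of the 16 markers was 4713 to 8777, 24636 to 28998 and 17567 to 26944 in the 3 groups, the lowest AMI value being that of replicate 4. Col3a1 and Postn made up 27.6% and 24.8% of the AMI sum. Against Sca-1-YFP- cells, AMI Bmi1-CPC had 4 of the 16 markers higher and 10 lower (median -0.74), where 51.8% of all genes were called. The pericyte and smooth muscle list had 10 of 11 genes higher and 1 lower in homeostatic Bmi1-CPC, against Sca-1-YFP- cells, with sums of 1820 to 2757 and 480 to 891, and after AMI 2 rose and 5 fell (1802 to 2257). The cardiomyocyte list had all 11 higher in Bmi1-CPC and all 11 lower after AMI, with sums of 876 to 1446, 84.7 to 221 and 303 to 478. The part of these cells in the Ly6 values was not tested.

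Leukocyte markers rose after AMI, where the Ly6 genes fell. The share of all genes called was 34.4% between the homeostatic groups and 43.4% between AMI and homeostasis. Of 10 pan-leukocyte markers with a row, 9 were higher in homeostatic Bmi1-CPC when set against Sca-1-YFP- cells and 9 rose after AMI, and their sum was 149 to 197 in homeostatic Bmi1-CPC, 49.1 to 61.1 in Sca-1-YFP- cells and 409 to 708 after AMI. Ptprc, which encodes CD45, had a mean of 17.4, 1.62 and 93.4 in the same order, low in the population from which CD45+ cells had been removed. Of 13 monocyte and macrophage markers 11 rose after AMI and 0 fell, and Emr1, a macrophage surface receptor, had 0 reads in all 4 Sca-1-YFP- libraries, which allows up to 3 reads per library or a value of at most 0.828. In homeostasis 9 of 12 tested monocyte markers were higher and 2 lower in Bmi1-CPC (median log2 fold change 2.59), although the sum went the other way. The monocyte sum was 447 to 593, 685 to 949 and 1075 to 1811 in the 3 groups. In Sca-1-YFP- cells Ace and Nr4a1, which other cells also express, made up 68.0% and 31.1% of it. Monocyte markers rose in the AMI libraries in which Ly6c1 fell. The part of Ly6c2 reads in the Ly6c1 values was not tested in any group.

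Interferon-stimulated genes were listed because Ly6a and Ly6e respond to interferon. Of 33, 22 were higher and 0 lower in homeostatic Bmi1-CPC against Sca-1-YFP- cells (median log2 fold change 0.80), where 34.4% of all genes were called and 16.8% were called higher, with Psmb9, an immunoproteasome subunit, at 1.40 (SE 0.17, limma adjusted p = 5.0e-05) and Bst2, the antiviral tether tetherin, at 1.03 (SE 0.14, adjusted p = 8.5e-05). After AMI 15 fell and 1 rose (median -0.41). The share called was near the 43.4% of all genes, while 22.0% of all genes were called lower. Psmb9 fell by 1.31 on the log2 scale, Tap1, a peptide transporter of antigen presentation, by 0.87 and Stat2, a transducer of interferon signals, by 0.65. Between AMI Bmi1-CPC and Sca-1-YFP- cells 15 were higher and 1 lower (median 0.33), where 51.8% of all genes and no Ly6 member were called. The summed value was 2920 to 4446 in homeostatic Bmi1-CPC, 1628 to 3105.5 in Sca-1-YFP- cells and 2287 to 2957 after AMI, and Sca-1-YFP- replicate 2 was again the highest of its group. Homeostatic Bmi1-CPC replicate 1 had the lowest interferon sum, the highest Ly6c1 and the lowest Ly6a of that group.

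Other Ly6/uPAR genes did not share a direction. Of 37 further symbols of the family, 6 had a row and all 6 were tested. Gpihbp1, which anchors lipoprotein lipase on capillary endothelium, was at 100.5 to 157 in homeostatic Bmi1-CPC, 22.8 to 43.1 in Sca-1-YFP- cells and 46.0 to 75.4 after AMI. It was higher in homeostatic Bmi1-CPC (log2 fold change against Sca-1-YFP- 1.93, SE 0.19, limma adjusted p = 1.1e-05) and fell after AMI (-1.08, SE 0.17, adjusted p = 0.000323). Cd59a, an inhibitor of the complement membrane attack complex, was at 27.6 to 37.6, 11.2 to 18.6 and 18.4 to 24.9, and was called in the same directions (1.24 and -0.56, adjusted p = 0.000126 and 0.00519). Both were also higher after AMI than in Sca-1-YFP- cells (0.85 and 0.68, adjusted p = 0.00354 and 0.00473).

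Lynx1, a modulator of nicotinic acetylcholine receptors whose gene lies within 500 kb of Ly6a, was highest in Sca-1-YFP- cells. It was at 19.7 to 29.0 in homeostatic Bmi1-CPC, 51.8 to 83.7 in Sca-1-YFP- cells and 19.5 to 28.6 after AMI. Bmi1-CPC were below Sca-1-YFP- cells in homeostasis (-1.55, SE 0.17, limma adjusted p = 2.1e-05) and after AMI (-1.57, adjusted p = 2.0e-05), and the AMI and homeostatic Bmi1-CPC values differed by -0.02 (SE 0.16, adjusted p = 0.91). Sca-1-YFP- replicate 2, highest for the 3 members, was the lowest of its group for Lynx1. Plaur, the urokinase receptor, rose after AMI: it was at 15.7 to 17.3 after AMI against 7.57 to 17.6 in homeostatic Bmi1-CPC, while Sca-1-YFP- cells had 3.73 to 10.4 (AMI versus homeostasis 0.65, SE 0.22, adjusted p = 0.028). Lypd1 and Cd59b had means of 4.91 or less in each group and were called in no comparison.

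**Figure D5:**
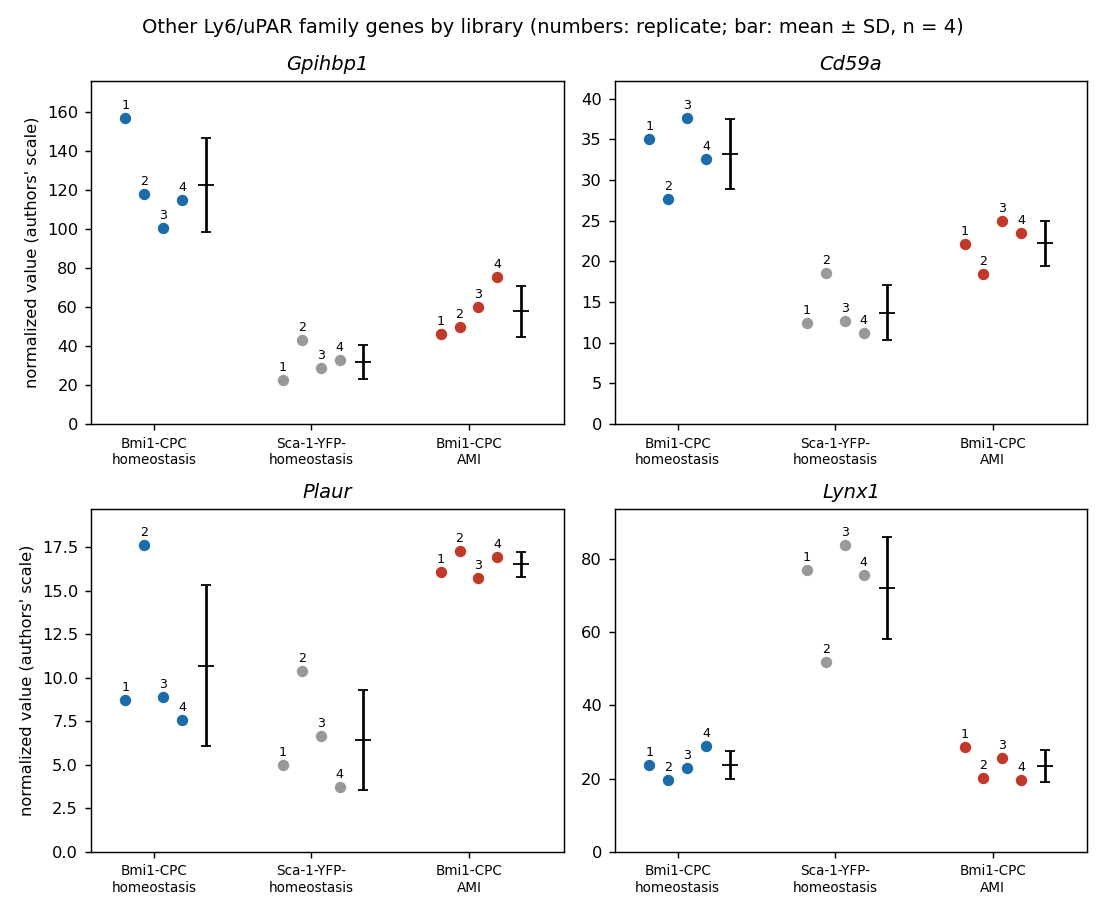
Normalized value (vertical axes, starting at 0) of Gpihbp1, Cd59a, Plaur and Lynx1 in each library, with replicate numbers and the mean ± SD beside each group. Gpihbp1 and Cd59a are highest in homeostatic Bmi1-CPC, Lynx1 is highest in Sca-1-YFP- cells (51.8 to 83.7), and the 4 AMI libraries of Plaur lie between 15.7 and 17.3.

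Few chromosomal neighbours were measured. Within 500 kb of Ly6a the annotation lists 23 genes besides the members, of which 4 were measured, Lynx1 among them. Bmi1-CPC versus Sca-1-YFP- gave 0 higher and 1 lower (Lynx1), where 34.4% of all genes were called. AMI Bmi1-CPC against Sca-1-YFP- cells gave 0 higher and 3 lower, where 51.8% of all genes were called. After AMI 3 of the 4 fell, where 22.0% of all genes were called lower: Arc, an immediate early gene (-1.72, SE 0.51, limma adjusted p = 0.016), Jrk (-0.80, SE 0.22, adjusted p = 0.011) and 4930572J05Rik (-0.87, SE 0.29, adjusted p = 0.030), the last pair with means of 3.89 or less. Arc was at 10.8, 72.4, 11.1 and 9.25 in homeostatic Bmi1-CPC and at 3.57 to 5.89 after AMI, so replicate 2 stood far above the others. Without it the mean of homeostatic Bmi1-CPC went from 25.9 to 10.4 and the AMI change of Arc to -1.05 (SE 0.20, limma adjusted p = 0.0021).

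The machinery that makes and attaches the GPI anchor was listed because the Ly6 proteins carry that anchor. Of 28 genes, 0 were higher and 3 lower in homeostatic Bmi1-CPC against Sca-1-YFP- cells, with a median log2 fold change of -0.13, where 34.4% of all genes were called. The largest was Pigz, a mannosyltransferase, at -1.79 (SE 0.30, limma adjusted p = 0.000469). After AMI 5 rose and 2 fell, where 43.4% of all genes were called, and between AMI Bmi1-CPC and Sca-1-YFP- cells 6 were higher and 5 lower, where 51.8% were. Pign rose after AMI by 0.89 (SE 0.14, adjusted p = 0.000325) and Piga, the catalytic subunit of the first step of anchor synthesis, by 0.56 (SE 0.15, adjusted p = 0.00863). Of 17 antigens used beside SCA-1 to sort cardiac and stromal cells, 7 were higher and 7 lower in homeostatic Bmi1-CPC when compared with Sca-1-YFP-, where 34.4% of all genes were called. By smallest adjusted p, Pdgfra was lower in Bmi1-CPC (log2 fold change -1.95), and Ptprc (2.83) and Mcam (1.86) were higher. Kit, the receptor of stem cell factor, came next and was higher in Bmi1-CPC (60.3 against 20.3, log2 fold change 1.57, limma adjusted p = 6.1e-05). The study describes Bmi1-CPC as mostly negative for c-KIT, given as a share of cells rather than an RNA level. After AMI 7 rose and 3 fell, where 43.4% of all genes were called. Cd44, a hyaluronan receptor, rose by 1.49 (limma adjusted p = 1.6e-06), and Pecam1 fell by 0.52 (limma adjusted p = 0.0075).

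Among 8203 genes with a mean value of at least 10, the genes most like each member over the 12 libraries were sought by the root mean square difference of their centred log2 values, with smaller values closer. For Ly6a they were Nod1 (0.140), H2-T22 (0.140) and St3gal1 (0.154). For Ly6c1 they were Hecw2 (0.116), Gpr56 (0.156) and Tmem88 (0.160). For Ly6e they were Ttc7b (0.112), Phc2 (0.117) and Xaf1 (0.123), the last a member of the interferon list. The members were not each other's nearest genes: seen from Ly6a, Ly6e came at place 222 and Ly6c1 at place 5128. Seen from Ly6c1, Ly6e came at place 220 and Ly6a at 819, and seen from Ly6e, Ly6a came at 170 and Ly6c1 at 1415. The measure takes in the size of a change as well as its direction. Hecw2, nearest to Ly6c1, had means of 175.5 in homeostatic Bmi1-CPC, 67.8 in Sca-1-YFP- cells and 98.1 after AMI. Nod1, nearest to Ly6a, had means of 72.8, 55.2 and 47.5.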

How the data were processed

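The deposited tables hold values of 12528 genes in 8 libraries each, and the 4 homeostatic Bmi1-CPC libraries had identical values in both. RNA of sorted cells was amplified with the Ovation system and sequenced as single reads of 75 bases. Per the submitters' processing notes, cutadapt, RSEM and edgeR were used with build NCBIM37, with no versions given. The deposited expression signal was the authors' normalized value, and 100% of values equalled the sum of a whole read number and 0.5, multiplied by 1 factor per library (tolerance 1e-06 reads). The deposited tables also hold the authors' fold change score, log2 fold change and adjusted p-value of their own comparisons, which were not used. Depth was 3397621 to 8078721 reads. For counting error only, 0 reads allow up to 3 reads, which came to 0.316 to 0.888 when scaled without the added 0.5.

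Groups came from the sample labels, and members, lists and tests were chosen with earlier results of these data known. The test took genes that exceeded a value of 1 in 4 or more of the 8 libraries compared and was run with limma 3.58.1 (variance trend, pseudocount 1, no covariates) in R 4.3.3. Alternatives were pseudocounts of 0.5 and 5, no filter, edgeR 4.0.16 (TMM, library totals, upper quartile) and DESeq2 1.42.0 on the recovered reads, 1 fit of all 12 libraries, a replicate block and each library left out. Library totals without mt-Rnr2, and Arc without homeostatic Bmi1-CPC replicate 2, were added after seeing the data. On simulated data the limma step recovered 76 of 100 genes changed by 1 log2 unit and 100 of 100 changed by 2 for Bmi1-CPC versus Sca-1-YFP- (12450 genes). It also called 11 unchanged genes. Changes were planted only in well-covered genes, and libraries were scaled to equal totals. Apart from Ly6c1 in that comparison, the members changed by less than 1 log2 unit, and recovery at such sizes was not simulated. Replicates differed beyond sampling noise (chi-square per degree of freedom 7.09 to 60.7).

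Same-numbered homeostatic libraries deviated together (r = 0.159 to 0.304 over genes, at most 0.0762 for other numbers), so the block is given where it changed a call. The study describes both the homeostatic and the AMI sample sets as matched, without saying by what, and AMI numbers did not deviate together. Named genes were all members with a row, every tested Ly6/uPAR gene, up to 4 genes per list by smallest adjusted p, called neighbours within 500 kb, and the 3 genes most like each member. Shared windows were counted in GENCODE M21 transcripts, with blastn 2.17.0 for copies of at least 75 bases at 95% identity. The files' build differs from GRCm38, so no coordinates are given. A marker of the monocyte list is not reported here by name.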

Additional observations from a re-analysis of the deposited data

Results flagged for a closer look

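In 36 sets of 4 libraries (a gene or ratio within a group), the gap between the most distant library and its nearest neighbour was divided by the whole range, and 3 sets exceeded Dixon's critical value, which chance alone exceeds in about 5% of sets. Plaur in homeostatic Bmi1-CPC gave 0.868, with replicate 2 at 17.6 and the others at 7.57 to 8.89. The ratio of Ly6c1 to Ly6e in Sca-1-YFP- cells gave 0.932, with replicate 2 at 0.375 and the others at 0.226 to 0.236. The same ratio in AMI Bmi1-CPC gave 0.857, with replicate 4 at 0.442 and the others at 0.312 to 0.331.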

How the results depend on the processing

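The 9 log2 fold changes of the members were recomputed under 18 alternatives each, and none of the 162 values changed direction. Of these, 155 kept their side of the threshold, 5 passed it newly and 2 no longer passed it. The 3 counts of called genes, in 54 recomputed values, stayed within 1.5 times of their own count. For Ly6a in Bmi1-CPC versus Sca-1-YFP- cells (0.35), DESeq2 gave 0.34 (adjusted p = 0.047) and limma with the replicate block gave 0.35 (adjusted p = 0.034), and values with 1 library left out ran from 0.24 to 0.45 (adjusted p = 0.013 to 0.19). For Ly6c1 in AMI Bmi1-CPC versus Sca-1-YFP- cells, the limma fit of all 12 libraries gave 0.59 (adjusted p = 0.047), and values with 1 library left out ran from 0.40 to 0.84 (adjusted p = 0.0032 to 0.18), passing only without Sca-1-YFP- replicate 2. Scaling to library totals in edgeR ended the AMI calls of Ly6a (-0.38, adjusted p = 0.13) and Ly6e (-0.45, adjusted p = 0.055), and with mt-Rnr2 out of the totals both passed. With 1 library left out, the AMI values ran from -0.63 to -0.42 for Ly6a, -0.96 to -0.68 for Ly6c1 and -0.64 to -0.50 for Ly6e, and all stayed called. The replicate block changed no other member's call. After AMI the numbers did not pair the samples (r = -0.0169 to 0.0772 against homeostasis, -0.17 to 0.0495 against Sca-1-YFP-), and the block there gave 5213 and 6075 called genes in place of 5421 and 6486. The number of pools limits the differences that can be seen, and near copies limit Ly6c1.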
